A study of Homo sapiens with 60 samples.

Results

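The response of HepG2 cells to a licorice root extract was described by setting 3 RNA-seq libraries of the High dose against 3 of the Low dose, across all genes. HepG2 is a cell line grown from a liver tumour, a human hepatocellular carcinoma. The libraries were chosen by their titles: those naming the ethanol extract of Glycyrrhizae Radix at High or Low dose, 6 of the 60 libraries of the series. The High cultures received 500 µg/mL and the Low cultures 20 µg/mL of the extract, made with 70% ethanol, for 24 h, per the labels. The series text allows lower doses for extracts that were toxic under 500 µg/mL, and gives no toxicity value for licorice. The 3 Medium libraries, at 100 µg/mL, are given for context, and no vehicle library enters the comparison, so that each value is relative to cells that had also received the extract. The labels describe the vehicle as 0.1% DMSO and the series text as 2%, and the DMSO content of the treated cultures is not given. All 9 libraries carry the same set code, 10, and the same batch name. The labels number the replicates but do not say that they are separate cultures, so each p-value speaks for library-to-library spread alone, which may be technical. Because HepG2 is 1 tumour line, the values describe that line.

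Licorice root is used in many herbal formulas. Its best-known constituent, the saponin glycyrrhizin, is cut to glycyrrhetinic acid, an inhibitor of the enzyme that inactivates cortisol, and an ethanol extract also takes up flavonoids and chalcones. Cultured liver cells answer foreign compounds through a few well-described regulators. The aryl hydrocarbon receptor (AhR) switches on CYP1 enzymes, NRF2 switches on antioxidant and conjugation genes, and the transcription factors ATF4 and CHOP carry the integrated stress response, which follows amino acid shortage, misfolded protein or mitochondrial trouble.

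Levels are in CPM, each gene's count as a rate on the scaled library size. A gene was called where the Benjamini-Hochberg adjusted p of edgeR's quasi-likelihood test was under 0.05, and every log2 change is High over Low with its standard error (SE) unless another pair of groups is named. The libraries held 21736185 to 32618681 counts in High and 28460908 to 30400131 in Low. The first principal component of the 9 libraries took 87.6% of the variance and placed the High libraries at 34.4, 36.3 and 35.5, against -19.2, -19.1 and -18.9 for Low. The Medium libraries lay at -16.3, -16.2 and -16.6, close to Low and far from High. The second component, 4.05% of the variance, separated Medium from Low. Between replicates the median absolute log2 difference over 10490 genes was 0.0555 to 0.0913, and between a High and a Low library it was 0.266 to 0.277.

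**Figure D1:**
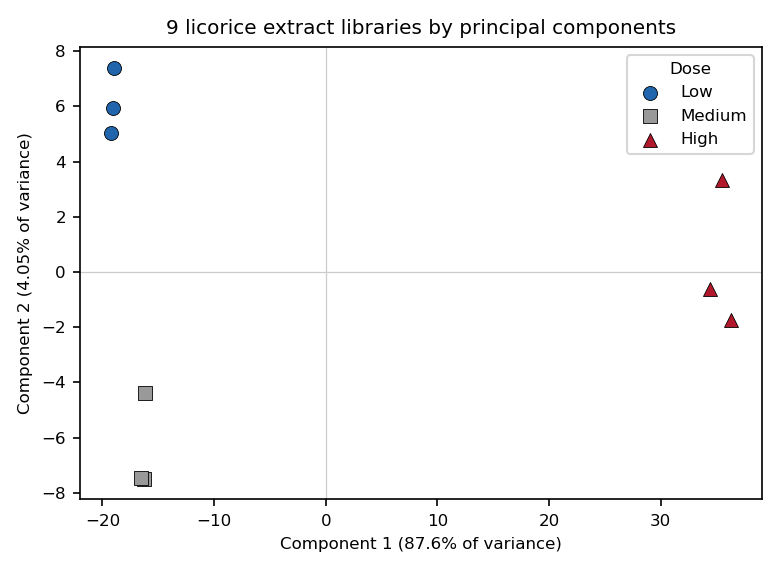
Position of the 9 licorice extract libraries on the first 2 principal components of log2 CPM, with the share of variance on each axis. Circles are Low, squares Medium and triangles High; the 3 High libraries sit alone at 34.4 to 36.3 on component 1, and Medium and Low lie together at -19.2 to -16.2.

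Of 16177 genes tested, 9120 were called, or 56.4%: 4603 rose (28.5%) and 4517 fell (27.9%). The median change over all genes was 0.01 and the quartiles -0.31 and 0.33. Many calls were small, and 2730 called genes changed by less than 1.25-fold. At least 2-fold changes were called for 1650 genes (10.2%), 833 of them higher (5.15%) and 817 lower (5.05%). Changes of at least 4-fold numbered 147 higher and 159 lower, and of at least 8-fold 45 higher and 48 lower. In 8837 of the called genes the 3 High libraries did not overlap the 3 Low ones, a separation that 63.1% of all genes tested showed. Against this background, a list of genes is described below by its counts in each direction and its median.

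The transcripts were those of a hepatocyte-derived line. The 7 hepatocyte markers ALB, AFP, TTR, APOA1, APOB, SERPINA1 and HNF4A summed to 42500 to 44800 CPM of unscaled counts in High, against 55300 to 56200 in Low. ALB, AFP, TTR, APOA1 and SERPINA1 were lower in High. APOB overlapped, at 17900 to 20200 CPM in High and 19100 to 19600 in Low. HNF4A was higher, at 435 to 463 CPM in High and 325 to 340 in Low. Of the genes that define other cell types, COL1A2 and DCN (fibroblasts), KDR (endothelium), PTPRC and CD3E (leukocytes) and CFTR (biliary epithelium) had no read in any of the 9 libraries. The stroma list summed to 2.58 to 3.03 CPM in High and 6.38 to 6.78 in Low, and the endothelial list to 1.75 to 2.36 in High and 2.67 to 3.09 in Low. PDGFRB carried the stroma list, at 2.44 to 2.86 CPM in High and 5.86 to 6.61 in Low. In the endothelial list PECAM1 was lower, at 0.828 to 0.905 CPM in High and 1.78 to 2.11 in Low. VWF overlapped, at 0.736 to 1.1 CPM in High and 0.562 to 0.957 in Low, as did CDH5. The leukocyte list, at 1010 to 1110 CPM in High and 1290 to 1380 in Low, rested on LYZ and CD68, which differed in direction: LYZ had 848 to 944 CPM in High and 1220 to 1320 in Low, and CD68 163 to 167 in High and 59.1 to 66.7 in Low. The biliary list, carried by SOX9, EPCAM and KRT19, summed to 271 to 293 CPM in High and 368 to 375 in Low. Mitochondrially encoded transcripts took 17.8 to 18.4% of the counts in High and 15.1 to 17.0% in Low. That share includes the mitochondrial ribosomal RNA MT-RNR2, which rose by 0.67; its part in other results was not tested, and leaving all mitochondrially encoded genes out gave 9121 called genes. In bulk RNA, fewer cells of a type or a cycle stage and less RNA per cell cannot be told apart.

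The 12 largest rises, among genes of at least 5 CPM whose groups did not overlap, were led by C5AR1, the receptor for complement fragment C5a, and CYP1A1. C5AR1, on chromosome 19 at chr19:47290023-47322066, had 10.2, 13.8 and 12.3 CPM in High, against 0.285, 0.404 and 0.448 in Low. Its 3 High libraries all lay far above the Low ones, a log2 change of 4.99 ± 0.25 (SE, n = 3 each; edgeR adjusted p = 3.42e-21). SLC16A6, a transporter of the monocarboxylate family, had 209.6, 219 and 194 CPM in High and 13.1, 13.7 and 12.4 in Low. No High library came near the Low range, and the change was 3.99 ± 0.07 (adjusted p = 4.55e-37). S100P, a small calcium-binding protein, had 102, 107 and 116 CPM in High, against 11.8, 10.5 and 11.1 in Low, a rise of 3.28. AQP3, a water and glycerol channel, had 26.02, 27.98 and 31.4 CPM in High and 2.53, 2.89 and 2.69 in Low, a rise of 3.39. NAGS, which makes the N-acetylglutamate that activates the urea cycle, had 19.9, 19.9 and 22.7 CPM in High and 1.96, 2.49 and 2.31 in Low, a rise of 3.21. The others lay under 2 CPM in every Low library: the myeloid membrane protein LRRC25 (3.73), the renin-binding epimerase RENBP (3.60), the secreted factor METRNL (3.49), the organic cation carrier SLC22A15 (3.46), and the transcripts AL033397.1 (3.22) and ZMIZ1-AS1 (3.09). ZMIZ1-AS1 is antisense to ZMIZ1, and the strand setting of the counting is not stated, so its reads and those of its partner cannot be told apart.

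The 12 largest falls were led by the long non-coding transcript LINC02413 (-4.69), at 0.266, 0.205 and 0.480 CPM in High and 7.33, 8.65 and 7.58 in Low, and by SLC6A14, a broad carrier of neutral and cationic amino acids. SLC6A14, at chrX:116436622-116461458, had 2.16, 1.82 and 2.53 CPM in High, against 49.7, 50.6 and 47.6 in Low. The groups lay far apart, and the change was -4.53 ± 0.10 (adjusted p = 9.14e-34). UBD, a ubiquitin-like modifier induced by cytokines, had 3.73, 3.26 and 3.58 CPM in High and 56.9, 59.8 and 54.2 in Low, a change of -4.02. DKK1, a secreted Wnt antagonist, had 5.56, 4.52 and 4.93 CPM in High and 79.1, 73.9 and 73.05 in Low, a change of -3.92. SCN1A, a neuronal sodium channel gene, had 7.09, 5.75 and 6.15 CPM in High, against 76.8, 77.8 and 75.5 in Low, a change of -3.60. In each of these genes the highest High library lay below the lowest Low library. The remaining falls were ACSL3P1 (-3.71), the tubulin gene TUBB1 (-3.54), PCYT1B of phosphatidylcholine synthesis (-3.47), the diacylglycerol kinase DGKK (-3.33), the kinase SGK1 (-3.20), ARG1 (-3.17), the arginase of the urea cycle, and the glucose transporter SLC2A3 (-3.17). ACSL3P1 is a pseudogene of ACSL3, whose own change was 0.93, and counting could split reads between such copies, so its value is uncertain.

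**Figure D2:**
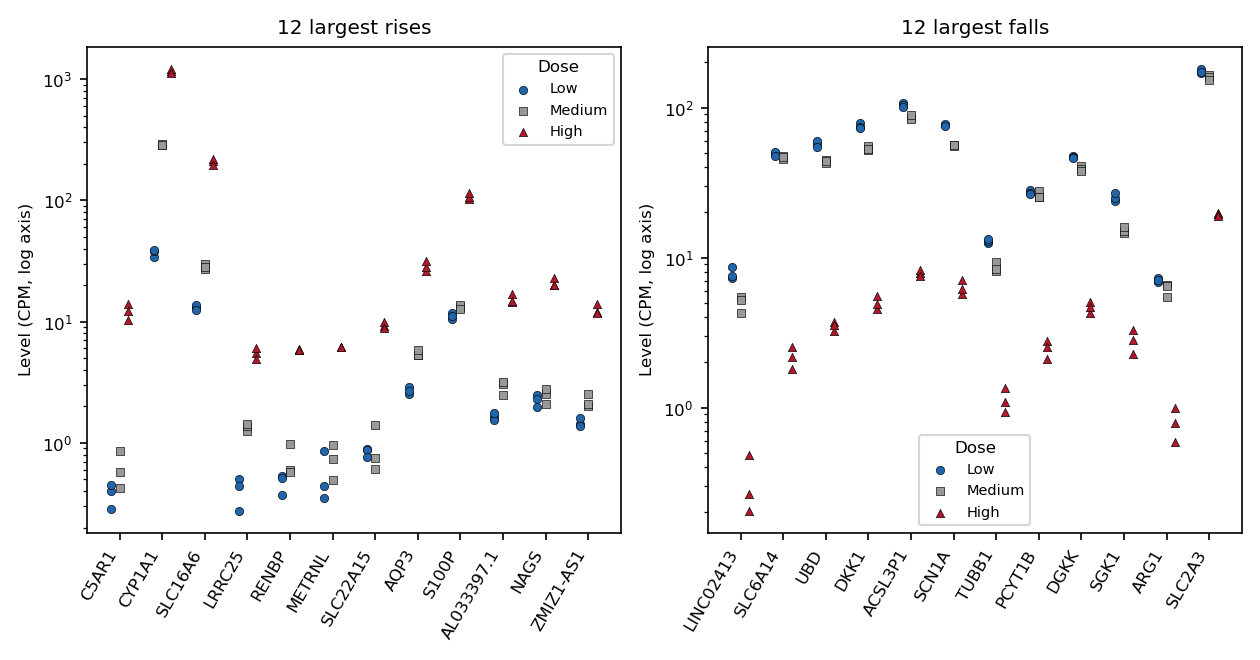
Level in CPM (log axis) of the 12 genes with the largest rises (left) and the 12 with the largest falls (right), 1 point a library; circles are Low, squares Medium and triangles High. The High points stand apart from the Low points in all 24 genes, and on the log axis the Medium points lie nearer to Low than to High in all of them but CYP1A1.

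Of the 8 genes past 2-fold with the highest mean CPM over the 6 libraries, PEG10 changed most. It is an imprinted gene derived from a retrotransposon and active in liver tumours, at chr7:94656325-94669695. It had 774, 718 and 664 CPM in High, against 4630.2, 4686 and 4849 in Low, a change of -2.72 ± 0.06 (adjusted p = 1.33e-33). The highest High library lay far below the lowest Low library. IGFBP1, a secreted binding protein of insulin-like growth factors that liver cells make on fasting and stress, had 1523, 1591 and 1539 CPM in High and 275, 264 and 254 in Low, a change of 2.55 ± 0.26. MT2A, a metallothionein, had 1627, 1436 and 1196 CPM in High and 485, 524 and 539.8 in Low (1.46). The aldo-keto reductase AKR1C1 rose by 1.91 and the quinone reductase NQO1 by 1.25, while lactate dehydrogenase A (LDHA, -1.19), the reductase DHRS2 (-1.07) and prothymosin alpha (PTMA, -1.04) fell. These 8 had the highest mean CPM over the 6 libraries among genes called past 2-fold.

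All 9 measured AhR genes rose, with a median of 1.51, against 0.01 over all genes. CYP1A1, the monooxygenase that oxidises aromatic hydrocarbons, had 1156, 1208 and 1124 CPM in High, against 34.2, 38.05 and 38.9 in Low. The change was 4.97 ± 0.11 (adjusted p = 1.69e-33), and the groups did not overlap. Its neighbour CYP1A2, which metabolises caffeine, had 3.79, 3.28 and 3.53 CPM in High and 0.221, 0.0673 and 0.103 in Low, a change of 4.69 at a low level. CYP1B1, a relative, had 0.765, 0.704 and 1 CPM in High and 0.0948, 0.101 and 0.0345 in Low, a change of 3.32 that rests on few reads in Low. AHRR, the repressor that AhR induces against itself, had 4.13, 4.25 and 4.49 CPM in High and 0.348, 0.572 and 0.621 in Low, a change of 3.06. The conjugating enzyme UGT1A6 (1.51), the feedback regulator TIPARP (0.74) and ALDH3A1 (0.67) rose less, as did the receptor AHR itself (0.55) and its partner ARNT (0.34). UGT1A6 shares its last exons with the other UGT1A genes, so its reads are not fully its own.

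The core of the AhR response element is GCGTG. It was looked for on both strands in the 250 bases before the transcription start of each gene in RefSeq (GRCh38.p14), where 36.2% of 27305 genes held it at 1 or more listed starts. Of the 9 AhR genes 7 had a promoter in the table and 4 held the core. GCGTG was not particular to the AhR list. It stood in 13 of 16 cytosolic synthetase, 16 of 26 replication and 9 of 15 stress response promoters. Mitosis promoters held it in 11 of 21 and NRF2 promoters in 8 of 18. The promoters of CYP1A1 and AHRR are shown because these are the largest rises with a match, with the core in capitals: CYP1A1 covers chr15:74725529-74725778 on the minus strand and AHRR chr5:321464-321713 on the plus strand. The best studied response elements of CYP1A1 lie farther upstream than this window.

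CYP1A1: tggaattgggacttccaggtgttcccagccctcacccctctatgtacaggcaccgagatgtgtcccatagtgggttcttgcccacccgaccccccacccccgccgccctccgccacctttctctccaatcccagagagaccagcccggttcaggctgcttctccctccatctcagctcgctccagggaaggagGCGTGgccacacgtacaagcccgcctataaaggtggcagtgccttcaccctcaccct
AHRR: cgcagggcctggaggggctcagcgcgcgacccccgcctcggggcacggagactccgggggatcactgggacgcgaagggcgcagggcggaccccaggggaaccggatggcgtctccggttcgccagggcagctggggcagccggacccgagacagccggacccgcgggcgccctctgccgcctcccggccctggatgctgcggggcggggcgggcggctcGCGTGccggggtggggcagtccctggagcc

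Other drug-handling genes moved in both directions. Of 9 measured targets of the receptors PXR and CAR, 6 rose, with a median of 0.44; they included CYP3A5 (0.99), the electron donor POR (0.74), UGT1A1 (0.48) and the efflux pump ABCB1 (0.44). The adult drug-metabolising enzyme CYP3A4 was at 0.76 and did not pass the test, and reads of the CYP3A genes can be shared. Among 13 ABC transporters 10 rose and 3 fell (median 0.54). ABCC3, a basolateral export pump for conjugates, had 238, 250.1 and 245 CPM in High and 38.4, 39.8 and 38.7 in Low, a change of 2.65, followed by ABCC2 (1.01) and ABCC1 (0.90). The canalicular phospholipid and sterol exporters ABCB4 (-0.61) and ABCG8 (-0.58) fell. Glutathione S-transferases were divided, 4 higher and 5 lower of 13 (median -0.06): the microsomal MGST1 rose (1.22), and GSTM2 (-0.81), GSTA2 (-0.57), GSTM4 (-0.49) and GSTA1 (-0.29) fell. The GSTA and GSTM genes are close copies of each other, which makes their single values uncertain.

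NRF2 targets rose almost throughout. Of 26 measured, 25 rose, 13 of them at least 2-fold, with a median of 0.95. SLC7A11, the cystine importer that feeds glutathione synthesis, had 256, 264 and 232 CPM in High and 42.05, 42.7 and 41.99 in Low. The change was 2.57 ± 0.07 (adjusted p = 3.95e-30). AKR1B10, an aldo-keto reductase, had 240.1, 246 and 258 CPM in High, against 42.6, 43.7 and 44.4 in Low, a change of 2.51, and AKR1C2 changed by 2.02; AKR1C1 and AKR1C2 are near-identical and may share reads. NQO1, the classic target, had 919, 939 and 886 CPM in High and 385, 391 and 378 in Low, a change of 1.25 ± 0.05. The peroxidase PRDX1 fell slightly (-0.25). The antioxidant response element core, TGANNNNGC on either strand, stood in the 250 bases before the start of 10 of 18 of these genes with a promoter in the table, against 40.3% of all genes. The core was not particular to this list, at 61.9% of mitosis and 57.1% of AhR promoters. It stood in 43.8% of cytosolic synthetase, 40.0% of stress response and 34.6% of replication promoters.

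The integrated stress response list moved together as well, with 15 of 16 measured targets of ATF4 and CHOP higher, 12 at least 2-fold, and a median of 1.40. NUPR1, a stress-induced chromatin protein, had 95.2, 99.3 and 101 CPM in High, against 12.96, 11.9 and 12.2 in Low. The change was 2.99 ± 0.10 (adjusted p = 6.93e-28). DDIT3, which encodes CHOP, had 34.7, 36.6 and 37.8 CPM in High and 5.79, 7.43 and 6.69 in Low, a change of 2.45 ± 0.10. GDF15, a secreted stress hormone, had 857, 869 and 917 CPM in High and 162, 160.4 and 169 in Low, a change of 2.43, and the lipoprotein receptor VLDLR changed by 2.26. In each of these the High libraries lay well above the Low ones. ATF5, a relative of ATF4, fell by a log2 change of -0.56, the exception in the list.

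Lists for amino acid supply and for charging tRNA held members of both directions. Asparagine synthetase, ASNS, had 201, 197 and 199 CPM in High and 38.2, 36.6 and 35.4 in Low, a change of 2.44 ± 0.06 (adjusted p = 4.40e-33). Of 17 genes of serine, proline and folate metabolism 14 rose and 3 fell (median 0.41). The mitochondrial folate enzymes ALDH1L2 (2.92) and MTHFD2 (1.24) rose, the cytosolic MTHFD1 (-0.74) and the first enzyme of proline synthesis, ALDH18A1 (-1.28), fell, and the cytosolic ALDH1L1 rose (1.47). Cytosolic aminoacyl-tRNA synthetases were higher in 13 of 20 and lower in 3, with a median of 0.47. SARS1, for serine, had 192, 198 and 209 CPM in High and 82.6, 85.1 and 87.4 in Low, a change of 1.23; WARS1 (1.11), CARS1 (1.03) and GARS1 (1.02) followed, and QARS1 (-0.22) was among those that fell. Mitochondrial synthetases were lower in 10 of 17, with PARS2 (0.48) higher, and a median of -0.19; VARS2 (-0.51), YARS2 (-0.46) and EARS2 (-0.44) were among those that fell. The mitochondrial members called higher numbered 2 in place of 1 without High replicate 1, and also under 6 other settings of scaling, filter or library set. Of 22 amino acid transporters 16 rose and 3 fell (median 0.73). SLC6A9 for glycine (1.34), the heavy chain SLC3A2 (1.18) and the lysosomal SLC38A7 (1.05) rose beside SLC7A11, and SLC38A4 (-2.08) fell beside SLC6A14.

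The composite element that binds dimers of CHOP and ATF4 contains TGATGNAA, which 3.89% of genes held within 250 bases before a start. It was found in 2 of 15 promoters of the stress response list, ATF3 and CEBPG, and in 3 of 16 of the cytosolic synthetases, AARS1, GARS1 and IARS1. The promoters of the first pair are shown, as the matches of the list that names the factors, with the element in capitals. ATF3, a stress-induced repressor, rose by 1.96 and is shown at chr1:212565157-212565406 on the plus strand, 1 of its listed starts; CEBPG, a partner of ATF4, rose by 0.94 and is shown at chr19:33373863-33374112 on the plus strand.

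ATF3: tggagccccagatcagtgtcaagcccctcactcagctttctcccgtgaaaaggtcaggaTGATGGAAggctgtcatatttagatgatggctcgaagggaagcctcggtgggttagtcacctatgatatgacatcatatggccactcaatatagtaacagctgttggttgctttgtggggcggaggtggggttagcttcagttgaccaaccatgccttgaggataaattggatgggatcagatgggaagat
CEBPG: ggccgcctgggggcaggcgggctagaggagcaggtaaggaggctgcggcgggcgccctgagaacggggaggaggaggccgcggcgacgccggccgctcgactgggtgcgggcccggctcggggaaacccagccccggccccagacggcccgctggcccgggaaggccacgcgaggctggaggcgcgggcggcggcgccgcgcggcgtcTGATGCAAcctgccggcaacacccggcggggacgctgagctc

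Chaperones did not follow the stress response list. Of 22 genes of the endoplasmic reticulum, 8 rose and 9 fell, with a median of -0.06. ERN1, the sensor kinase IRE1, had 38.1, 41.3 and 41.3 CPM in High and 14.7, 14.4 and 14.3 in Low (1.47), and the cochaperone DNAJB9 rose by 1.12. The calcium-binding chaperone CALR had 680.3, 680.4 and 705 CPM in High, against 1236, 1204 and 1179 in Low (-0.81), and CRELD2 (-0.51), XBP1 (-0.49) and SDF2L1 (-0.43) also fell. Cytosolic and mitochondrial chaperones were lower in 18 of 19, with a median of -0.37. HSP90AA1 had 984, 989 and 972 CPM in High and 1679, 1698 and 1625 in Low (-0.76), HSPA8 changed by -0.71, STIP1 by -0.60 and DNAJA1 by -0.60, and the mitochondrial HSPA9 rose by 0.38. Proteasome subunits were lower in 15 of 31 and higher in 1 (median -0.08), PSMD14 (0.26), with 3 higher when libraries were scaled by total count alone.

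Genes of self-digestion rose. Of 20 autophagy genes 15 rose, with a median of 0.34. The cargo receptor SQSTM1, also an NRF2 target, had 602, 634 and 615 CPM in High, against 161, 163 and 166 in Low, a change of 1.92 ± 0.05 (adjusted p = 3.82e-32). MAP1LC3B, the membrane tag that receptors bind, had 225, 241 and 225 CPM in High and 71.3, 72.3 and 66.2 in Low (1.72), and its relative GABARAPL1 (1.84) and the receptor OPTN (1.29) rose too. Of 22 lysosomal genes 19 rose, with a median of 0.51: the proteases CTSB (1.12), CTSA (0.79) and CTSL (0.78) and the glycogen-degrading GAA (0.78). The regulator TFEB was lower (-0.27); its call was lost without Low replicate 2 (adjusted p = 0.0649) or without Low replicate 3 (adjusted p = 0.0575).

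Proliferation genes fell as a block. All 25 mitosis genes, all 29 genes of DNA replication and nucleotide supply and all 18 genes of homologous recombination and the Fanconi pathway were lower in High, with medians of -1.31, -1.30 and -0.96. In the mitosis list 24 fell at least 2-fold and in the replication list 23. TOP2A, the topoisomerase that untangles sister chromatids, had 173, 168 and 166 CPM in High, against 530.4, 521 and 518 in Low. The change was -1.63 ± 0.05 (adjusted p = 3.27e-30). KIF20A, a motor of late mitosis, had 23.4, 23.6 and 22.3 CPM in High and 90.7, 93.8 and 93.8 in Low, the largest fall of its list at -2.01 ± 0.05. The spindle motor KIF11 had 28.6, 28.2 and 27.4 CPM in High and 85.1, 85.7 and 84.6 in Low (-1.60), and the cytokinesis protein ANLN changed by -1.52. The spread within each group was small beside the gap between the groups.

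Subunits of the replicative helicase fell, as did enzymes of nucleotide supply. MCM5 had 28.7, 25.1 and 28.3 CPM in High, against 98.5, 96.95 and 101 in Low, a change of -1.85 ± 0.06 (adjusted p = 2.25e-27). MCM4 had 71.2, 67.3 and 69.8 CPM in High and 224, 229.6 and 225 in Low (-1.71), MCM2 changed by -1.65, and thymidine kinase, TK1, had 16.1, 15.9 and 15.5 CPM in High and 55.7, 50.7 and 54.9 in Low (-1.76). Among repair genes FANCB (-1.48), BRIP1 (-1.35), EXO1 (-1.29) and RAD51AP1 (-1.25) fell most. Of 24 genes that govern entry into S phase 17 fell and 3 rose, with a median of -0.73. The repressor E2F8 (-1.98), the inhibitor CDKN2C (-1.65), cyclin E2 (CCNE2, -1.43) and CDK2 (-1.39) fell; the inhibitors CDKN2B (1.24), CDKN1A (0.70) and CDKN2D (0.41) were the 3 that rose.

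Promoters of cell cycle genes carry known short elements. The cell cycle homology region, TTTGAA, stood within 250 bases before a start in 12 of 21 mitosis genes, against 16.1% of all genes, and the CCAAT box of NF-Y in 16 of 21, against 37.0%. The CCAAT box was not particular to the mitosis list. It stood in 71.4% of AhR, 66.7% of stress response, 61.5% of replication, 55.6% of NRF2 and 43.8% of cytosolic synthetase promoters. The E2F forms TTTGGCG and TTTCCCG stood in 14 of 26 replication genes, against 6.25% of all genes and 2 of 21 mitosis genes. All were counted on both strands. The mitosis genes of largest change that held TTTGAA were TOP2A, at chr17:40417897-40418146 on the minus strand, and KIF11, at chr10:92592880-92593129 on the plus strand, shown with each match in capitals (TTCAAA is the same element on the other strand). A match is a description of these letters and not of a bound factor.

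TOP2A: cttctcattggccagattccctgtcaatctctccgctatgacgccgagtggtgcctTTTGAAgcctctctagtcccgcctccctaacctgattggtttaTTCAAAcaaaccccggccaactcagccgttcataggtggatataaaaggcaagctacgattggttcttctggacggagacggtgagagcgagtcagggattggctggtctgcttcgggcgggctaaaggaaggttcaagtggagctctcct
KIF11: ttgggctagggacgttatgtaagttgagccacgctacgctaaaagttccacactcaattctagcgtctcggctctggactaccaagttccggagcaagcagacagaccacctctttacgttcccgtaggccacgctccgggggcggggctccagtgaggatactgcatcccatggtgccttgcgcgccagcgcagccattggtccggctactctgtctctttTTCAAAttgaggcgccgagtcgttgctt

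Apoptosis and p53 genes were mixed. Of 20 BCL2 family members, death receptors and caspases 9 rose and 6 fell, with a median of 0.02. The death-promoting BMF had 46.3, 49.5 and 50.1 CPM in High and 13.7, 14.03 and 14.4 in Low (1.79), and PMAIP1 (1.04), BBC3 (0.97) and the receptor TNFRSF10A (0.74) rose. The death-promoting BCL2L11 (-0.71) and the protective BCL2L1 (-0.48) fell. Of 20 p53 targets 7 rose and 9 fell, with a median of -0.08; DDB2 (-0.73), FDXR (-0.65), AEN (-0.49) and PHLDA3 (-0.37) fell, and PLK3 rose (1.03). MYC rose by 0.60, while 16 of the 25 genes of the list it heads, MYC and ribosome assembly factors, fell and 3 rose (median -0.26), among them UTP20 (-0.61), FBL (-0.60), NOP56 (-0.58) and LYAR (-0.57), all lower.

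**Figure D3:**
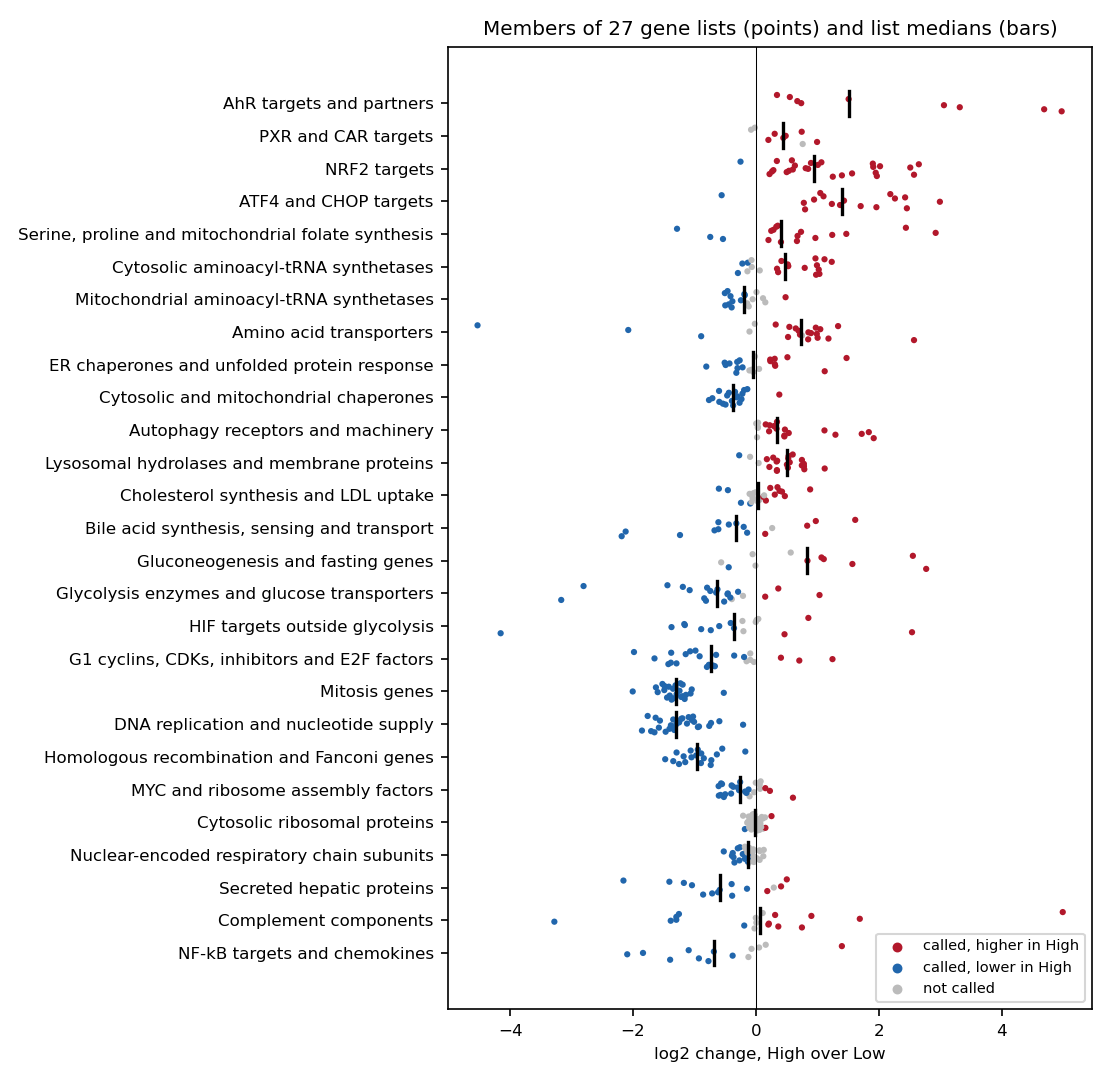
Log2 change, High over Low, of the measured members of 27 gene lists, 1 point a gene; red is called and higher, blue called and lower, grey not called, and the black bar is the list median. The mitosis and replication lists lie wholly below 0 with medians of -1.31 and -1.30, and the AhR list wholly above 0 with a median of 1.51.

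Transcripts of genes for sugar use changed in both directions. Of 21 glycolysis genes 16 fell and 3 rose, with a median of -0.63. The neuronal-type glucose transporter SLC2A3 had 19.9, 19.6 and 18.8 CPM in High, against 180.5, 171 and 173 in Low, a change of -3.17 ± 0.15 (adjusted p = 1.55e-22). PFKFB3, which makes the activator of phosphofructokinase, had 1.53, 1.44 and 1.57 CPM in High and 11.5, 9.02 and 11.1 in Low (-2.80 ± 0.39), and PFKFB4 changed by -1.44. LDHA, which turns pyruvate into lactate, had 633, 625 and 633 CPM in High and 1419, 1449 and 1444 in Low (-1.19). The platelet-type phosphofructokinase PFKP (1.03) and ENO2 (0.36) rose. Many of these genes are also targets of the oxygen-sensing factor HIF, and of 17 HIF targets outside glycolysis 9 fell and 3 rose, with a median of -0.36. Carbonic anhydrase CA9 had 0.233, 0.323 and 0.262 CPM in High, against 4.68, 5.32 and 4.96 in Low (-4.15 ± 0.41). EGLN3 (-1.37), ANKRD37 (-1.17) and PDK1 (-1.16) also fell. EGLN3, with means of 0.504 CPM in High and 1.31 in Low, and ANKRD37, with 0.845 and 1.91, were at low levels. CA12 had 1.73, 1.70 and 1.44 CPM in High and 0.253, 0.303 and 0.276 in Low (2.54), and MXI1 rose by 0.85.

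Genes of glucose production and fasting rose in 6 of 11 and fell in 1 (median 0.84). G6PC1, which releases free glucose, had 133, 144 and 138 CPM in High, against 19.98, 20.2 and 20.7 in Low. The change was 2.77 ± 0.13 (adjusted p = 2.72e-22). The mitochondrial PCK2, also an ATF4 target, had 394, 397 and 431 CPM in High and 136, 137 and 139 in Low (1.57), and the tyrosine aminotransferase TAT rose by 1.10. The cytosolic PCK1 was at -0.01 and did not pass the test. The glucose 6-phosphate carrier SLC37A4, partner of G6PC1, fell by a log2 change of -0.44.

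Cholesterol genes were close to balanced, 9 higher and 4 lower of 23, with a median of 0.04 that turned to -0.00287 without High replicate 3. CYP51A1, an enzyme of the late pathway, had 413, 419 and 398 CPM in High and 305, 293 and 289.7 in Low (0.47 ± 0.05), and SC5D (0.42) and DHCR7 (0.38), which also act late, rose. Of 18 genes of fatty acid and triglyceride synthesis 9 rose and 3 fell (median 0.15). AGPAT2 (1.94), ACSS2 (0.84), LPIN1 (0.77) and GPAM (0.49) rose, while DGAT2, which adds the last fatty acid to triglyceride, had 20.1, 19.4 and 19.1 CPM in High and 49.3, 45.3 and 49.8 in Low (-1.30), and DGAT1 changed by -0.83.

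In fatty acid oxidation and among PPAR alpha targets 6 of 21 rose and 7 fell (median 0.07). CPT1A, the gate for fatty acids into mitochondria, had 165, 172 and 165 CPM in High, against 53.8, 52.6 and 52.2 in Low (1.66 ± 0.07). The fatty acid carrier FABP1 had 133, 117 and 168 CPM in High and 302, 366 and 315 in Low (-1.24). Bile acid genes fell in 10 of 15 and rose in 4, with a median of -0.32. CYP7A1, which starts and limits bile acid synthesis, had 1.23, 1.03 and 0.741 CPM in High and 4.49, 4.74 and 4.72 in Low (-2.18 ± 0.15). AKR1D1, a later enzyme of the pathway, had 4.86, 4.25 and 5.49 CPM in High, against 21.8, 20.3 and 20.7 in Low (-2.12 ± 0.07), and CYP8B1 changed by -1.24. Both subunits of the basolateral bile acid exporter, SLC51B (1.61) and SLC51A (0.97), rose.

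Secreted liver proteins fell in 11 of 15 and rose in 3, with a median of -0.59. Thyroxine-binding globulin, SERPINA7, had 38.5, 35.2 and 36.1 CPM in High, against 166, 166 and 157 in Low, a change of -2.16 ± 0.05 (adjusted p = 9.18e-34). The fetal albumin AFP had 7222, 7258 and 7126 CPM in High and 13210, 13270 and 12730 in Low (-0.86), and ALB changed by -0.39. TTPA (-1.41), HPX (-1.17) and GC (-1.04) fell, and AMBP (0.41) and A1BG (0.50) rose. TTPA, with means of 0.897 CPM in High and 2.34 in Low, and GC, with 0.595 and 1.25, were at low levels. Acute phase genes split, 5 higher and 7 lower of 12 (median -0.42): the iron hormone HAMP had 16.3, 16.3 and 18.01 CPM in High and 3.98, 5.05 and 4.24 in Low (1.93), SAA4 rose by 0.62, and haptoglobin (HP, -1.08), ceruloplasmin (CP, -0.97) and the fibrinogen chain FGA (-0.58) fell. Complement split as well, 8 higher and 6 lower of 18 (median 0.06). C8G (1.69), MASP1 (0.90) and C1S (0.75) rose beside C5AR1, and C8A (-1.39) fell, as did C6 at the edge of detection, with 0.0665, 0.0293 and 0 CPM in High and 0.443, 0.303 and 0.379 in Low; C4A and C4B are near-identical copies, so their single counts are uncertain. Of 17 coagulation genes 5 rose and 8 fell (median -0.17), with factor VII, F7, at 51.3, 48.8 and 53.3 CPM in High and 18.2, 19.9 and 18 in Low (1.45), PROZ at 1.00, F13B at -1.34 and SERPINA5 at -0.88.

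Apolipoprotein and lipoprotein genes were higher in 6 of 15 and lower in 8 (median -0.29). APOC1 had 383, 382 and 439.5 CPM in High and 164, 166 and 167 in Low (1.27), APOC2 rose by 0.85, and APOH (-0.89), LCAT (-0.63), APOA5 (-0.61) and the loading protein MTTP (-0.57) fell. Of 8 urea cycle genes 4 rose and 2 fell (median 0.27). ASS1, which joins citrulline and aspartate, had 109, 112 and 118 CPM in High and 43.9, 42.02 and 45.5 in Low (1.37), ARG2 rose by 0.86, and CPS1 changed by -0.35. ARG1 had 0.998, 0.587 and 0.785 CPM in High, against 6.86, 7.30 and 7.14 in Low (-3.17 ± 0.28), so ARG1 and ARG2 moved in opposite directions. Liver transcription factors were lower in 13 of 19, with a median of -0.35: FOXA1, a pioneer factor, had 56.4, 60.1 and 55.5 CPM in High and 107, 109.5 and 113 in Low (-0.94), and GATA6 (-1.72), NR2F1 (-1.18) and NR5A2 (-0.73) fell. ESRRA (0.67), ONECUT2 (0.61), HNF4A (0.38) and HNF4G (0.22) were the 4 that rose. GATA6 was at a low level, with means of 0.537 CPM in High and 1.72 in Low.

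Corticosteroid genes were listed because glycyrrhetinic acid acts on the inactivation of cortisol, and whether it acted here was not tested. Of 11 measured, 6 rose and 4 fell, with a median of 0.53. TSC22D3, a classic glucocorticoid target, had 2.06, 2.26 and 2.57 CPM in High and 0.348, 0.437 and 0.517 in Low (2.39 ± 0.24), and SCNN1A (1.05), DUSP1 (0.97) and KLF9 (0.58) rose. SGK1, a kinase that both corticosteroid receptors induce, had 2.83, 2.29 and 3.27 CPM in High, against 23.6, 25.1 and 27.03 in Low, a change of -3.20 ± 0.09 (adjusted p = 7.61e-30). HSD11B2, the cortisol-inactivating enzyme that glycyrrhetinic acid inhibits, had 11.1, 8.62 and 8.68 CPM in High and 18.3, 16.6 and 19.8 in Low (-0.94 ± 0.11). The glucocorticoid receptor NR3C1 changed by 0.53, and the mineralocorticoid receptor NR3C2, at -0.67, did not pass the test.

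Several signalling lists leaned down. Of 15 Wnt genes 10 fell and 3 rose, with a median of -0.48: beside DKK1, the feedback inhibitors RNF43 and NKD1 fell, with 67.3, 64.6 and 68.2 CPM in High and 174, 170.0 and 178 in Low for RNF43 (-1.39) and a change of -1.22 for NKD1. DKK4 changed by -1.26, while NKD2 (1.97) and TBX3 (0.68) rose. Among 15 YAP and TGF-beta targets 9 fell and 3 rose (median -0.20). TAGLN, an actin-binding protein, had 2.73, 2.61 and 3.01 CPM in High and 18.7, 19.2 and 18.4 in Low (-2.76 ± 0.12), CCN2 had 33.6, 32.1 and 34.3 CPM in High and 123, 129 and 120.1 in Low (-1.90), and THBS1 (-1.38) and AMOTL2 (-1.26) fell, whereas TGFB1 (0.55) was among those that rose. NF-kB targets fell in 8 of 13, with a median of -0.68. BIRC3, an apoptosis inhibitor, had 2.20, 2.49 and 1.61 CPM in High and 9.77, 8.71 and 9.07 in Low (-2.09), TNFAIP3 changed by -1.40 and the chemokine CCL20 by -1.09. The 1 that rose, TNFAIP2, had 1.06, 0.440 and 0.523 CPM in High and 0.253, 0.336 and 0.172 in Low and lost its call without High replicate 1 (adjusted p = 0.0976).

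Interferon and antigen presentation genes were lower in 10 of 21 and higher in 4 (median -0.22), led by UBD and IFIT1 (-1.84), with OAS1 (0.77) among those higher. Of 21 immediate early and ERK feedback genes 10 rose and 5 fell (median 0.17); JUND (1.25), JUN (1.15), EGR1 (1.12) and DUSP5 (1.06) rose, and DUSP6 fell (-0.35). Among 19 genes of iron, BMP signalling and metallothioneins 3 rose and 10 fell (median -0.28). MT2A rose as given above, while MT1X had 18.8, 17.6 and 17.6 CPM in High and 31.4, 33.2 and 36.2 in Low (-0.90); metallothioneins are close copies, and reads may be shared. Of 13 genes of the insulin-like growth factor axis 6 rose and 5 fell: IGF2 had 4464, 4081 and 4260.3 CPM in High, against 6119.5, 6749 and 6812 in Low (-0.62), and IGF2R (0.88), IRS1 (0.79) and INSR (0.57) rose. The median of that list, -0.07, turned positive without High replicate 1 (0.0287) and without Low replicate 1 (0.0697). Clock genes went both ways, 5 higher and 4 lower of 14 (median 0.06), with NFIL3 (0.56) and DBP (-0.90) at the ends of those called.

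Few genes of the cytosolic ribosome were called. Of 40 cytosolic ribosomal protein genes 37 did not pass the test, with a median of -0.02; RPS18 (0.25) and RPL10 (0.15) were higher and RPL6 (-0.18) lower. The sign of that median flipped when single libraries were left out (-0.05 to 0.00764) and under other scalings, and the count of lower genes was 3 without High replicate 3, 4 with no filter on low counts, and 5 with only the 6 libraries compared or the 9 licorice libraries. Mitochondrial ribosomal proteins were lower in 12 of 30 and higher in 5 (median -0.10), none past 2-fold, with MRPL17 at -0.53 and MRPL24 at 0.34. Nuclear-encoded respiratory chain subunits were lower in 14 of 32, with a median of -0.13 and CYC1 at -0.52; 9 were lower without High replicate 2 and 8 with total count scaling. Of the 13 mitochondrially encoded protein genes edgeR called none over the 51 libraries, where 2 had an unadjusted p under 0.05, and DESeq2 called none. That count depended on the setting: edgeR called 4 lower and 1 higher with no filter on low counts, 3 lower and 1 higher with only the 6 libraries compared, 2 lower with the 9 licorice libraries, and 1 lower with total count scaling or without Low replicate 1. Their median of -0.02 lay between -0.106 and 0.0384 when 1 library was left out.

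At Medium dose most of this had not appeared. Medium over Low, which shares its Low libraries with the comparison above, called 572 genes (3.54%), 281 higher and 291 lower, and 21 of them past 2-fold (0.13%), 18 higher and 3 lower. The lists differed in how far their levels had moved at Medium. The AhR list had a median log2 change of 1.21 for Medium over Low, beside 1.51 for High over Low, though only 3 of its 9 genes were called at Medium, and CYP1A1 had 288, 291 and 287 CPM in Medium. The NRF2 list had 0.34 beside 0.95, with 19 of 26 called higher at Medium, and NQO1 had 633, 673 and 650.1 CPM. The stress response list had 0.03 beside 1.40, and DDIT3, at 7.03, 6.80 and 6.67 CPM in Medium, lay within its Low range. Mitosis had 0.05 beside -1.31 and replication 0.02 beside -1.30; TOP2A, at 515, 529.9 and 525 CPM in Medium, overlapped its Low libraries, and no member of either list was called. Cholesterol genes had a median of -0.17 for Medium over Low, with 13 of 23 called lower, beside 0.04 for High over Low. CYP51A1 had 289.7 to 305 CPM in Low, 261 to 268 in Medium and 398 to 419 in High, with Medium the lowest. UGT1A1 ran the other way, with 17.5 to 18.8 CPM in Low, 27.8 to 29.7 in Medium and 24.7 to 25.3 in High, and SLC2A3 had 164, 161 and 152 CPM in Medium. The secreted protein list was already lower at Medium, with 7 of 15 called and a median of -0.25.

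**Figure D4:**
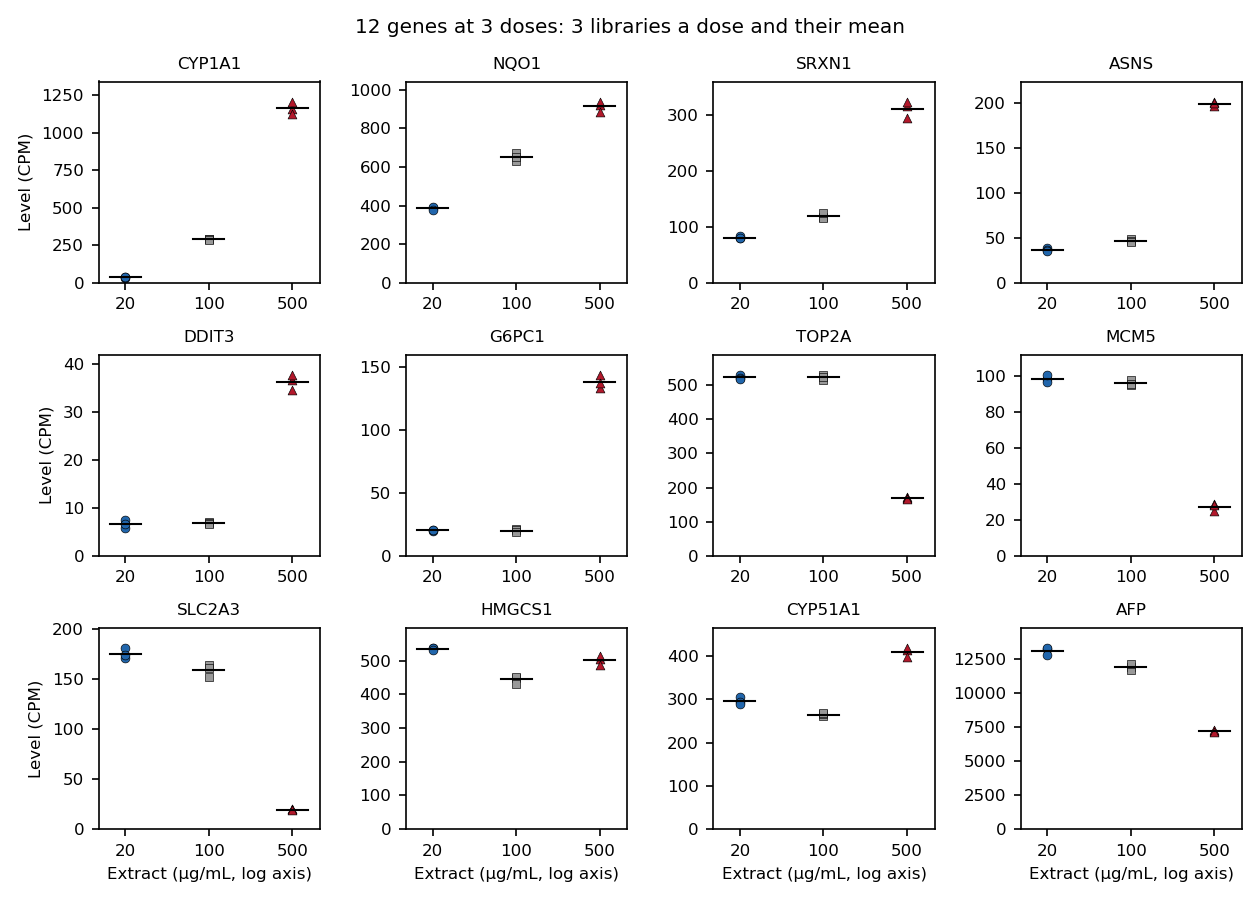
Level in CPM of 12 genes at 20, 100 and 500 µg/mL (log axis), 1 point a library and a bar at the mean of the 3 libraries; the genes were picked for the plot after their values were seen. CYP1A1, NQO1 and SRXN1 are higher at each step, ASNS, DDIT3, G6PC1, TOP2A, MCM5 and SLC2A3 differ mainly between Medium and High, and HMGCS1 is lowest at Medium.

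The same High against Low contrast was set beside those of ethanol extracts of 2 other herbs at the same doses and time, which share no library with it. Poria cocos (a fungus; set code 9) had a median absolute log2 change of 0.216 over all genes and 635 genes called past 2-fold, and Panax ginseng (set code 10, as for licorice) 0.0977 and 16, beside 0.318 and 1650 for licorice. Between licorice and Poria the change differed in 7400 genes (45.7%) by edgeR's test of the interaction, 47.9% of them more positive in licorice, a share that was 72.0% with total count scaling, which moved the median difference of all genes to 0.196. Between licorice and ginseng it differed in 7365 genes (45.5%). Set code and extract cannot be told apart for Poria. Of the 24 genes with the largest licorice changes, picked for that size, 23 differed from Poria and 24 from ginseng.

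By list, the differences were as follows. In mitosis the median was -1.31 in licorice, -0.38 in Poria and 0.04 in ginseng, and 24 of 25 members differed from Poria and 25 from ginseng. The stress response list had 1.40 in licorice, 0.19 in Poria and -0.01 in ginseng, with 15 of 16 members different from Poria. NRF2 targets had 0.95 in licorice, 0.75 in Poria and 0.34 in ginseng, with 18 of 26 members different from Poria and 23 from ginseng, and NQO1 changed by 1.25 in licorice, 1.00 in Poria and 0.61 in ginseng. CYP1A1 changed by 4.97 in licorice and 1.85 in Poria, and its value in ginseng, 0.41, did not pass the test; both lay below licorice (adjusted p of the difference 5.71e-20 and 1.60e-24). Glycolysis had medians of -0.63 in licorice and 0.44 in Poria, with 18 of 21 members different, and NF-kB targets -0.68 in licorice and 0.57 in Poria, with all 13 different. LDHA changed by -1.19 in licorice and 0.44 in Poria (adjusted p of the difference 8.63e-22). G6PC1 changed by 2.77 in licorice, -0.78 in Poria and -1.08 in ginseng, and HAMP by 1.93 in licorice and -2.75 in Poria (adjusted p of the difference 1.41e-18).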

How the data were processed

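The deposited table holds expected counts per gene, estimated by the authors with RSEM 1.3.3 after alignment with STAR 2.7.3a to GRCh38/hg38, with trimming by Trim Galore 0.6.5 and checks by FastQC 0.11.9, per the submitters' processing notes. Per the labels, libraries were made from mRNA with a directional kit and sequenced as 100-base pairs on an MGI instrument. The annotation release and strand setting are not given in the sources used here. Of 60675 genes and 270 sample columns, 60 columns belong to the samples of the series given here and 210 were not used. The table holds gene IDs; symbols were matched for 41209 and coordinates taken from GENCODE release 29 for 57055.

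Expected counts were rounded (23.4% of nonzero values were not whole, at a tolerance of 0.005), and genes with too few counts for edgeR's filter were dropped, leaving 16177. The fit used edgeR 4.0.16 in R 4.3.3 with TMM scaling and the quasi-likelihood test over 51 libraries in 18 groups (33 residual degrees of freedom), which share 1 estimate of spread. P-values were adjusted over all genes tested. DESeq2 1.42.0, other scalings, filters, sample sets, a replicate block and the omission of each library were alternatives. The script was tested on simulated data. Depth limits the precision of genes with few reads, and counts without molecular identifiers are not independent molecules.

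Gene lists and named genes were chosen with earlier results of these data known. Named are the 12 largest rises and 12 largest falls with at least 5 CPM in the higher group and no overlap, up to 4 called members of each list in its main direction and 2 in the other, and the 8 genes past 2-fold of highest mean CPM over the 6 libraries; AFP, ALB, ACSL3, HNF4A, HNF4G, CDKN2D, ATF3, CEBPG, MT-RNR2, PCK1, CYP3A4, NR3C1, NR3C2, HMGCS1, SRXN1 and the lesser AhR genes were added after their values were seen. Promoters are RefSeq's, build GRCh38.p14. A few genes of the lists are counted in them but are not reported here singly.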

Additional observations from a re-analysis of the deposited data

Results flagged for a closer look

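The test of the difference between licorice and Poria in their High over Low changes called 7400 genes, and the same test against ginseng called 7365. TUBB1 and ARG1, both among the 12 largest falls with licorice, differed in direction as well. TUBB1 changed by -3.54 with licorice and 1.23 with Poria, a difference of -4.77 (adjusted p = 1.72e-08), and ARG1 by -3.17 with licorice and 0.69 with Poria, a difference of -3.86 (adjusted p = 1.26e-12).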

How the results depend on the processing

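Total counts of called genes varied less with the setting than counts by direction against Poria. High against Low gave 8685 to 9415 calls under the other alternatives and 8454 to 8683 with 1 library left out, beside 9120. Calls past 2-fold numbered 1221 to 1892, and 1589 to 1666 with 1 library left out, beside 1650. Differences from Poria numbered 6379 to 7742 and from ginseng 6882 to 7405. Changes more positive in licorice than in Poria numbered 3001 to 5575, beside 3545. Those more negative numbered 2167 to 3921, beside 3855. A replicate block was fitted to the 6 High and Low libraries alone, with 15013 genes tested. It gave 9001 called genes and 1513 past 2-fold, beside 9348 and 1518 for these 6 libraries without the block. Same-numbered High and Low libraries correlated at 0.0241, -0.0861 and -0.0675 in their deviations, and differently numbered ones at -0.0634 to 0.114. These values show no visible shared effect of the number. They cannot settle whether the cultures were paired, which the labels do not say. Medians near 0 changed sign: cholesterol genes gave -0.00287 to 0.0698 with 1 library left out, the insulin-like growth factor axis -0.0985 to 0.0697, and the leukocyte markers 0.176 with a filter of at least 1 CPM; the cause was not tested. No named gene reversed.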

Other observations

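The share of genes called depended on level. In the lowest of 5 equal classes of genes by mean CPM 12.2% were higher and 12.1% lower, and in the highest class 29.3% were higher and 41.6% lower. By annotated type, protein-coding genes were higher in 30.8% and lower in 32.0%, antisense genes higher in 19.8% and lower in 11.4%, and long intergenic RNAs higher in 21.5% and lower in 14.3%. The parts of level and type were not separated.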
